A study of Homo sapiens with 3 samples.

Results

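The 8 genes described here encode proteins of the tight junction and the gap junction: the claudin genes CLDN1, CLDN3, CLDN4 and CLDN7, the occludin gene OCLN, the zonula occludens 1 gene TJP1, and the connexin genes GJB1 and GJB2. They were picked by gene symbol from the 20332 genes of the table, with earlier results of these data in view, so their differences from the control are given as descriptions and no test was applied to them. All 8 had a row, and all 8 were among the 11600 that averaged 1 TPM or more across the libraries, called measured below. TPM is a gene's length-corrected share of the signal in a library.

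HCC827 is an established human lung adenocarcinoma line with an activating EGFR mutation, and the 3 libraries came from HCC827 cells given DMSO, compound 1 or compound 2. The compounds, daphnane diterpenoids according to the title, were each used at 5 μM for 24 h, and the labels gave no time for DMSO. No other line, dose or time was analysed here. Each group was 1 library, so no value below has a replicate error, and every difference is one between 2 libraries that may be smaller than the spread between cultures. The total number of reads was not known.

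Tight junctions seal the space between neighbouring epithelial cells near their apical edge. Claudins form the strands and set which ions pass, occludin and its relatives lie in the same strands, and zonula occludens proteins tie the strands to actin on the cytoplasmic side. Gap junctions are channels that join the cytoplasm of touching cells, and they are built from connexins, of which GJB1 encodes connexin 32 and GJB2 connexin 26. In airway and alveolar epithelium the claudins set the barrier of the lung surface.

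Promoter sequences are given for GJB1, the only one of the 8 at a lower level after either compound by 2-fold or more, and for GJB2, CLDN1 and TJP1, each at least 2-fold higher after both. They are RefSeq sequences on GRCh38.p14, written 5′ to 3′ on the strand of the gene. The GJB1, GJB2 and CLDN1 stretches end at the base before the first exon base that GENCODE 29 gives for the gene. The TJP1 stretch lies inside that gene and ends at the base before the first exon of a transcript that starts there. Capitals mark letters that match a searched motif, which is the GC box in GJB2, CLDN1 and TJP1; the GJB1 stretch holds none. The GJB1 stretch is chrX:71214989-71215193 on the plus strand. The GJB2 stretch is chr13:20193011-20193188, the CLDN1 stretch is chr3:190322476-190322696, and the TJP1 stretch, from 1 of 4 windows of that gene, is chr15:29822504-29822718, all on the minus strand.
GJB1: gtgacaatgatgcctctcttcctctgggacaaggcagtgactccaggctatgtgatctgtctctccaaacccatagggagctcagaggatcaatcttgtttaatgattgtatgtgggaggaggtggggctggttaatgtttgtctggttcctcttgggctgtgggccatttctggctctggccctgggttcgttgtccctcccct
GJB2: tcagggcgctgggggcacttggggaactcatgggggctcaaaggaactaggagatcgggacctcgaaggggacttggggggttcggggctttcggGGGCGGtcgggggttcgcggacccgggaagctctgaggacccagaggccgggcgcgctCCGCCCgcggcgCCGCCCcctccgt
CLDN1: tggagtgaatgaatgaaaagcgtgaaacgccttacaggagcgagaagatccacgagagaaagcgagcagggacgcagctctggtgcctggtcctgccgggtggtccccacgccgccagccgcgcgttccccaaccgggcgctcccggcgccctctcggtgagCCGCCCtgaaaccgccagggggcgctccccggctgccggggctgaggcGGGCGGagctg
TJP1: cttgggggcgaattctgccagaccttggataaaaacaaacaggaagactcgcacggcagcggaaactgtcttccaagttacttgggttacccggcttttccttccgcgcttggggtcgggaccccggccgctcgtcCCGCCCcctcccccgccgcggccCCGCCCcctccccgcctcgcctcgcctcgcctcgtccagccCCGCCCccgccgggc

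Letters of 4 motifs were searched on both strands of the full RefSeq windows, 250 bases before to 50 after a start, and none of the motifs contains another. All 8 genes had a window, 13 in all, since CLDN7 and OCLN had 2 each and TJP1 had 4. The GC box GGGCGG was found in windows of 7 of the 8 genes, all but GJB1, and in 44.95% of all 35116 windows. Counted by window it was in 9 of the 13 (69.2%), against 66.7% of the 13775 windows of genes measured in these cells, so the share was near that background. The E-box CAGGTG, letters bound by the SNAI and ZEB repressors, was found for CLDN3, CLDN7, OCLN, TJP1, GJB1 and GJB2. Counted by window it was in 7 of the 13 (53.8%), against 20.6% of all windows and 18.7% of those of measured genes. The 2 OCLN windows both held it but overlap each other, so they are not separate. 1 CLDN7 window held 5 copies. That window and both OCLN windows begin inside an annotated exon of their gene, as does the CLDN4 window. The E-boxes of CLDN3, GJB1 and GJB2 did not lie wholly in the bases before the first exon base. That of TJP1 did, in a window whose sequence is not printed. The AP-1 letters TGANTCA were found only for CLDN4, with 2 copies, against 7.71% of all windows, and the GRHL letters AACCGGTT for none of the 8, against 0.134%. These matches describe letters and do not show that a factor binds there.

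After compound 1, 5 of the 8 genes were at least 2-fold higher than in the DMSO library and 1 was at least 2-fold lower. CLDN1, OCLN, TJP1, GJB2 and CLDN7 were higher, GJB1 was lower, and CLDN4 and CLDN3 were within 2-fold. After compound 2, 4 were higher, namely CLDN1, TJP1, GJB2 and OCLN, 1 was lower, again GJB1, and 3 were within 2-fold. Over all 11600 genes, 14.7% passed 2-fold upwards and 8.09% downwards after compound 1, and 12.6% and 6.56% did so after compound 2. Since the genes were chosen with these ratios known, nothing is read from their count against that background. The same shares are the background for counts of these unadjusted ratios in the gene lists below. The background for counts with the length and GC trend subtracted is given with that trend. Nothing is read from either kind of count. The median log2 ratio of TPM + 1 was 1.16 over the 8 genes and 0.11 over all genes after compound 1, and 0.97 and 0.09 after compound 2. Both comparisons used the same DMSO library. In RNA from whole cultures, fewer cells with a transcript and less of it per cell cannot be told apart.

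**Figure D1:**
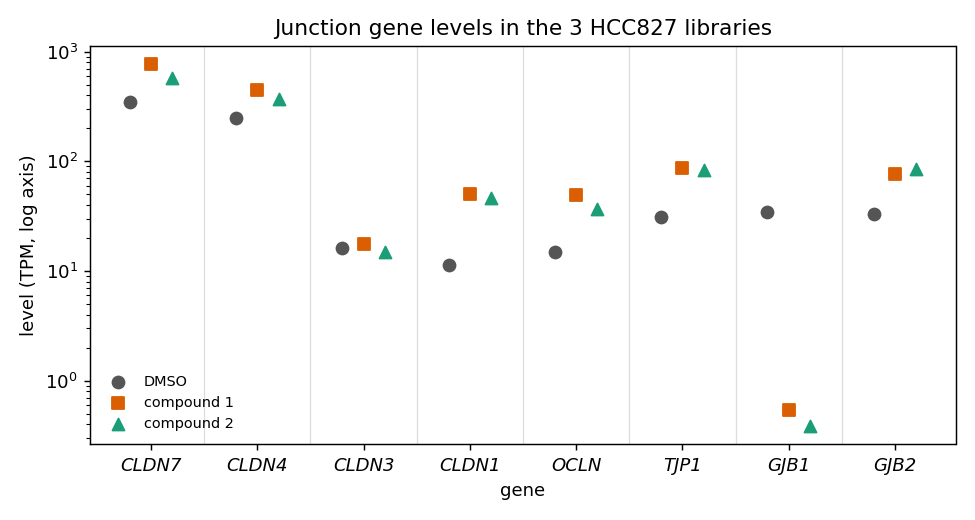
Level of each of the 8 genes in TPM on a log axis, with 1 point per library (circle, DMSO; square, compound 1; triangle, compound 2) and no error, since each group was 1 library. GJB1 stands at 34.7 TPM under DMSO and below 1 TPM in both compound libraries, while GJB2, at 32.7 TPM under DMSO, stands at 75.9 and 84.2 TPM.

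The 4 claudin genes spanned a wide range of levels. CLDN7 (ENSG00000181885, chromosome 17, 7259903 to 7263983, minus strand, GRCh38) encodes a claudin found widely in epithelia, and stood at 349 TPM in the DMSO library, 769.6 TPM after compound 1 and 570.1 TPM after compound 2. It was the highest of the 8 in every library, and its rank among the 11600 genes moved from 404 to 189 and 252. Its log2 ratio to DMSO was 1.14 after compound 1 and 0.71 after compound 2, so compound 1 lay past 2-fold and compound 2 did not. Exons of CLDN7 overlap those of AC003688.1, a protein-coding gene on the same strand that shares 13.0% of the 31-base stretches of the longest CLDN7 transcript and was at 0, 0.242 and 0.278 TPM in the DMSO, compound 1 and compound 2 libraries. They also overlap exons of ELP5, an Elongator subunit gene on the other strand, with levels of 80.3, 50.1 and 53.1 TPM. Whether the counting used strand was not stated, so reads from the overlap cannot be assigned with certainty.

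CLDN4 (ENSG00000189143, chromosome 7, 73799542 to 73832693, plus strand) encodes a claudin that restricts sodium passage in kidney and lung epithelia. It was at 248 TPM in the DMSO library, 447 TPM after compound 1 and 366 TPM after compound 2. Both compound libraries were above DMSO by less than 2-fold, with log2 ratios of 0.85 and 0.56. CLDN3 (ENSG00000165215, chromosome 7, 73768997 to 73770270, minus strand), a gene with a single exon, is the neighbour of CLDN4 at a distance of 29271 bases, with no annotated gene lying wholly between them. Its levels were 16.3 TPM, 17.7 TPM and 14.9 TPM in the DMSO, compound 1 and compound 2 libraries. The log2 ratios of CLDN3 were 0.11 and -0.12, below those of its neighbour. With a trend across all genes in GC content and length subtracted, as described further on, the gap was narrower, with CLDN3 at 0.60 and 0.30 and CLDN4 at 0.79 and 0.48. CLDN4 was at 15.2 times the level of CLDN3 under DMSO, 25.2 times with compound 1 and 24.5 times with compound 2. The longest transcripts of this pair share few 31-base stretches, 3.30% for CLDN3 and 3.27% for CLDN4.

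CLDN1 (ENSG00000163347, chromosome 3, 190305701 to 190322475, minus strand) encodes the claudin required for the skin barrier in mice. It was at 11.4 TPM in the DMSO library, the lowest of the 8, at 50.1 TPM after compound 1 and at 45.9 TPM after compound 2. The level was 4.404 times DMSO after compound 1 and 4.03 times after compound 2, the largest increases among the 8 in both comparisons (log2 ratios 2.05 and 1.92). CLDN1 moved from below CLDN3 to above it in both compound libraries. No 31-base stretch of its longest transcript occurs in another annotated gene.

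OCLN (ENSG00000197822, chromosome 5, 69492292 to 69558104, plus strand) encodes occludin, a membrane protein with 4 spans that sits in the strands beside the claudins. It was at 14.9 TPM in the DMSO library, 49.0 TPM after compound 1 and 36.7 TPM after compound 2 (log2 ratios 1.65 and 1.24). The compound 1 library was the highest of the 3. Of the 31-base stretches of its longest transcript, 14.3% occur in other genes, with the pseudogene OCLNP1 the closest, so a part of its signal may be split between them. TJP1 (ENSG00000104067, chromosome 15, 29699367 to 29968865, minus strand) encodes zonula occludens 1, the scaffold that binds claudins and actin. It was at 31.1 TPM in the DMSO library, 86.6 TPM after compound 1 and 83.4 TPM after compound 2. Its log2 ratios of 1.45 and 1.40 lay close together.

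The connexin genes GJB1 and GJB2 had similar levels under DMSO and far apart ones after either compound. GJB1 (ENSG00000169562, chromosome X, 71215194 to 71225516, plus strand) encodes connexin 32, best known from liver and from myelinating Schwann cells. It was at 34.7 TPM in the DMSO library, 0.537 TPM after compound 1 and 0.385 TPM after compound 2. The TPM values were 64.6-fold and 90.2-fold lower than in the DMSO library, and the log2 ratios of TPM + 1 were -4.54 and -4.69. Only 2 of the 11600 genes had a lower ratio in either comparison. GJB1 was below 1 TPM after both compounds and averaged 1 TPM or more only through its DMSO level. Nothing is therefore read from that rank. The steps of low values put the compound libraries at roughly 9.47 and 5.96 reads for GJB1, against about 570 in the DMSO library, so the exact fold is imprecise. GJB1 has no overlapping annotated gene and no 31-base stretch in common with another gene.

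GJB2 (ENSG00000165474, chromosome 13, 20187463 to 20193010, minus strand) encodes connexin 26, the main connexin of the supporting cells of the cochlea and a connexin of many epithelia. It was at 32.7 TPM in the DMSO library, 75.9 TPM after compound 1 and 84.2 TPM after compound 2 (log2 ratios 1.19 and 1.34). The ratio of GJB2 to GJB1 was 0.943 under DMSO, 141 with compound 1 and 219 with compound 2. GJB2 was the only one of the 8 at a higher level after compound 2 than after compound 1.

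**Figure D2:**
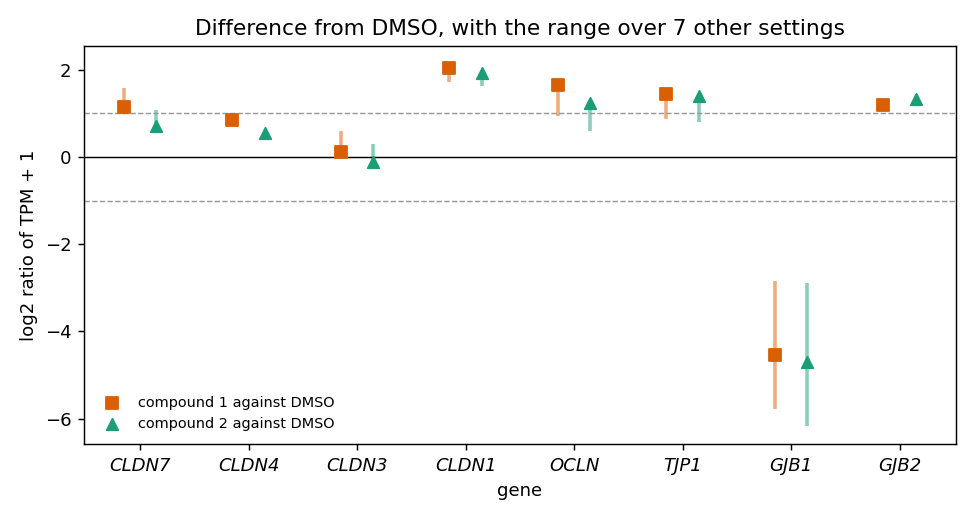
Log2 ratio of TPM + 1 to the DMSO library for each gene (square, compound 1; triangle, compound 2), with a vertical line for the range over 7 other settings of the computation, which is not an error. Dashed lines mark 2-fold; the line of OCLN and of TJP1 reaches below the upper one, and GJB1 lies between -6.17 and -2.84 under all of them.

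Across the table, genes with long transcripts had higher ratios than genes with short ones. The median log2 ratio after compound 1 was -0.18 in the shortest 25% of transcripts, which hold CLDN3, CLDN7, GJB1 and GJB2, and 0.48 in the longest 25%, which hold OCLN and TJP1. The 25% lowest in GC content, with CLDN1 and OCLN, had a median of 0.61, and the highest, with CLDN3, CLDN4 and CLDN7, one of -0.25. With the trend in length and GC content subtracted, OCLN was at 0.93 and TJP1 at 0.86 after compound 1, and at 0.60 and 0.80 after compound 2, all short of 2-fold. CLDN7 then stood at 1.57 and 1.07, past 2-fold after both compounds, and CLDN3 at 0.60 and 0.30, with its sign after compound 2 turned. GJB1 (-4.18 and -4.34), CLDN1 (1.72 and 1.66) and GJB2 (1.27 and 1.38) stayed past 2-fold. The source of the trend was not tested. Over all genes, 64.5% of those past 2-fold were higher after compound 1 and 65.8% after compound 2, against 48.3% and 47.8% with the trend subtracted.

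Compound 2 was set against compound 1 at the same dose and time. None of the 8 genes differed by 2-fold between the compounds, where 0.293% of all genes were at least 2-fold higher after compound 2 and 0.552% lower. The log2 ratios of compound 2 to compound 1 ran from -0.43 for CLDN7 to 0.15 for GJB2, with a median of -0.19, and 7 of the 8 were below 0. The lowest were CLDN7 and OCLN (-0.43 and -0.41), followed by CLDN4 (-0.29) and CLDN3 (-0.23). GJB1, CLDN1 and TJP1 were nearer to 0, at -0.15, -0.13 and -0.05. For GJB1 this rests on the 1 TPM added to each value, since its levels of 0.537 and 0.385 TPM lie below it. With 0.1 or 5 TPM added instead, the GJB1 ratio was -0.39 or -0.04. With 1 library for each compound there is no interval for these differences, and they do not show that the compounds act alike. The labels did not give the difference in structure between the compounds.

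Among 23 claudin genes, 9 were measured, 7 were listed at 0 in all 3 libraries, and the 14 unmeasured ones did not exceed 0.254 TPM in any library. CLDN7 and CLDN4 together made up 83.0% of the summed claudin TPM under DMSO, 80.2% with compound 1 and 78.4% with compound 2. The sum itself was 719 TPM, 1516 TPM and 1194 TPM. Of the 9 measured, 3 passed 2-fold upwards and 2 downwards after compound 1, and 2 and 2 after compound 2. CLDN12, a claudin of several epithelia, was at 71.2, 217 and 185 TPM (log2 ratios 1.60 and 1.36, and 1.06 and 0.86 with the trend subtracted), the third most abundant claudin in every library. CLDN2, which forms a channel for sodium and water in kidney and gut, was at 8.16, 0.306 and 0.198 TPM (-2.81 and -2.94). CLDN9 was at 5.26, 0.544 and 1.02 TPM (-2.02 and -1.64). CLDN2 and CLDN9 were near or below 1 TPM after the compounds and averaged 1 TPM or more through their DMSO level, so their folds are imprecise. CLDN1, CLDN7 and CLDN12 were thus the measured claudins past 2-fold upwards after compound 1, CLDN2 and CLDN9 those past 2-fold downwards, and CLDN3, CLDN4, CLDN15 and CLDN23 were within 2-fold.

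**Figure D3:**
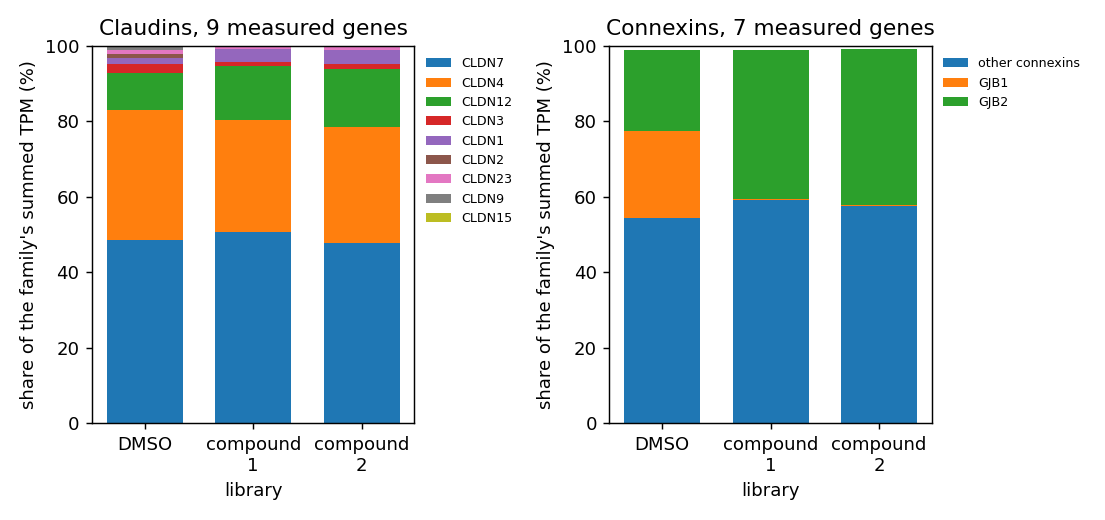
Share of measured genes in the summed TPM of their family, in percent, for the 3 libraries, with the measured connexins besides GJB1 and GJB2 drawn together; unmeasured members make up the remainder. CLDN7 keeps between 47.7% and 50.8% of the claudin sum, whereas GJB1 takes 22.8% of the connexin sum under DMSO and 0.280% and 0.190% after the compounds.

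Among 21 connexin genes, 7 were measured. In the DMSO library GJB1 took 22.8% of the connexin sum and GJB2 21.5%. After the compounds GJB2 took 39.7% and 41.5%, and GJB1 0.280% and 0.190%. The summed connexin TPM was 152 under DMSO, 191 with compound 1 and 203 with compound 2, so it was not lower despite the values of GJB1. GJA1, the gene of connexin 43, was unmeasured, at 0.477, 0.314 and 0.510 TPM. With the 3 pannexin genes included, 9 of 24 were measured, of which 2 passed 2-fold upwards and 1 downwards after compound 1, and 3 and 1 after compound 2. With the length and GC trend subtracted, 4 were higher after compound 1, namely GJB2, PANX1, PANX2 and GJD3, and 3 after compound 2, with GJB1 still the 1 lower. PANX2, the gene of a related channel protein, was at 11.02, 43.1 and 32.4 TPM (log2 ratios 1.88 and 1.47), and PANX1, which releases ATP, at 14.8, 29.4 and 34.7 TPM (0.94 and 1.17).

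Of 12 other membrane proteins of the tight junction, OCLN included, 7 were measured, with 2 at least 2-fold higher after compound 1, 1 after compound 2 and none lower. MARVELD2, which encodes tricellulin at the corners where 3 cells meet, was at 9.22, 22.7 and 19.0 TPM (1.21 and 0.97), and MARVELD3, a further relative of occludin, at 24.8, 15.3 and 17.5 TPM (-0.66 and -0.47). LSR, the receptor that brings tricellulin to those corners, was at 119, 150.4 and 149 TPM (0.34 and 0.32). The median of the 7 was 0.20 after compound 1 and 0.13 after compound 2, against 0.11 and 0.09 for all genes. With the length and GC trend subtracted, none of the 7 passed 2-fold after either compound, MARVELD2 stood at 0.85 and 0.67, and the median was 0.69 and 0.56, against 0.00 for all genes.

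Of 21 plaque and polarity genes, TJP1 included, 20 were measured. After compound 1, 7 passed 2-fold upwards and none downwards (median 0.55), and after compound 2, 6 and none (median 0.71). With the length and GC trend subtracted, 3 were higher and 1 lower after either compound. ARHGEF2, which encodes the RhoA exchange factor GEF-H1, was at 25.5, 106 and 84.6 TPM (2.01 and 1.69), and AMOTL2, an angiomotin family gene, at 11.6, 33.7 and 46.6 TPM (1.46 and 1.92). MAGI1, a scaffold, was at 2.43, 9.06 and 10.05 TPM (1.55 and 1.69), PRKCI, the atypical protein kinase C of the polarity complex, at 17.4, 49.7 and 47.7 TPM (1.46 and 1.40), and PALS1, of the Crumbs complex, at 10.6, 26.2 and 29.3 TPM (1.22 and 1.38). ARHGEF2, AMOTL2 and MAGI1 stayed past 2-fold with the trend subtracted, and PRKCI and PALS1, like TJP1, did not.

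**Figure D4:**
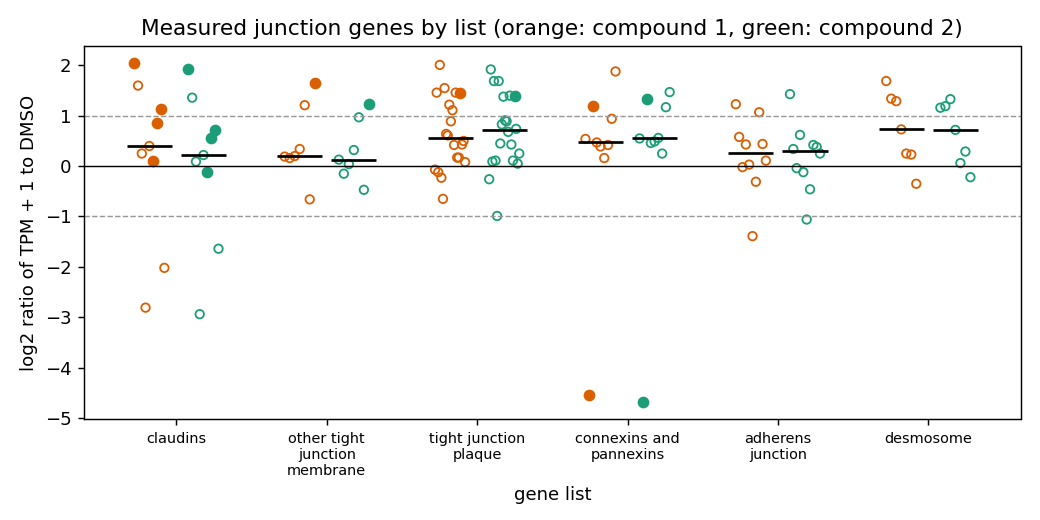
Log2 ratio of TPM + 1 to DMSO for every measured gene of 6 junction lists, with filled points for the 8 genes described in full, open points for the rest, and black bars at the list medians. Orange points are compound 1 and green points compound 2; GJB1 is the lowest point in the plot, at -4.54 and -4.69.

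Genes closest in pattern were found by the distance between their log2 ratios in both comparisons with DMSO, over 3 libraries. CLDN1 lay closest to DNAJC10 (2.02 and 1.92, distance 0.024), EREG (2.07 and 1.90, 0.033) and ENAH (2.08 and 1.92, 0.034). GJB1 lay closest to ERP27 (-4.74 and -4.39, distance 0.36), EPN3 (-4.25 and -4.20, 0.56) and GPX2 (-3.68 and -4.73, 0.86), so its neighbours were far sparser. ERP27 was at 78.2, 1.97 and 2.78 TPM, and EPN3 at 33.5, 0.811 and 0.875 TPM.

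Across the libraries, between 14154 and 14473 genes were above 0, and the 10 most abundant genes took between 8.62% and 9.22% of the signal. The 13 mitochondrially encoded genes took 4.24% of it in the DMSO library and 2.00% and 2.74% after the compounds, and the part of that difference in the ratios was not tested. All 6 epithelial markers, EPCAM, CDH1, KRT7, KRT8, KRT18 and KRT19, were measured, with a summed level of 15268 TPM in the DMSO library and 7454 and 7047 TPM after the compounds. The lower sum came mostly from KRT8 (5735, 1702 and 1385 TPM), KRT18 (4428, 1956 and 1739 TPM) and KRT19 (2463, 1439 and 1209 TPM). EPCAM (611, 778 and 695 TPM) and CDH1 (180, 268 and 228 TPM) were instead above their DMSO level after both compounds. Of fibroblast markers 1 of 6 was measured (summed level 0.756 to 2.00 TPM, with COL1A2, DCN and LUM at 0), of endothelial markers none of 5 (0.074 to 0.483 TPM, with CDH5 and KDR at 0), and of leukocyte markers 1 of 4 (0.083 to 2.24 TPM). Of 3 lung adenocarcinoma lineage markers, NKX2-1 and NAPSA were measured and SFTPB was not. NAPSA, the gene of the aspartic protease napsin A, was at 276, 88.5 and 82.7 TPM (log2 ratios -1.63 and -1.73), and NKX2-1, the lung lineage transcription factor gene, at 19.9, 8.74 and 5.66 TPM (-1.10 and -1.65), so both were more than 2-fold lower after both compounds. With the length and GC trend subtracted, NKX2-1 stood at -0.70 and -1.29, within 2-fold after compound 1, and NAPSA at -1.40 and -1.47. The part of these marker differences in the values of the junction genes was not tested.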

How the data were processed

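Per the labels' protocols, Trizol was used for RNA and an Illumina TruSeq kit for the libraries. Bowtie 0.12.2 and the builds GRCh38.p12 and mm8 are listed, per the submitters' processing notes, with no role or order; no source used here states the annotation or the counting. The headers of the authors' deposited table name FPKM, but each deposited column sums to 1000000, so the values were used as TPM. A TPM value falls when other genes gain share.

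Of 20332 identifiers, 20089 were in GENCODE 29, which gave coordinates and lengths; shared sequence was measured as 31-mers of the longest transcript. Log2 ratios used a pseudocount of 1 for the 11600 genes whose 3 values averaged 1 TPM or more; the pseudocount understates changes of low genes. Called means 2-fold, without a test, since each group held 1 library. A read per kb was worth about 0.116, 0.108 and 0.123 TPM in the DMSO, compound 1 and compound 2 libraries. With these fitted steps, 54.7% to 58.9% of low values came within 0.1 of a whole number, so read numbers are approximate. The 7 alternatives changed the pseudocount (0.1 or 5), the filter (a mean of 5 TPM, or none), the scaling (median-of-ratios or upper-quartile), or subtracted the medians within 20 bins, first by transcript length, next by GC content.

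The 8 genes, the lists and the motifs were chosen with earlier results of these data known. Named besides the 8 were up to 4 genes of each list with the largest ratio in either comparison, others past 2-fold in both, and the 3 genes closest in pattern to the members with the highest and lowest ratio. GJA1, GJD3, CGNL1, CLDN15 and CLDN23 were named outside this rule, after their values were seen. Some genes of the lists are not reported here. Also named outside the rule were ELP5, AC003688.1 and OCLNP1, for shared sequence. The computation was tested on simulated data, with a constant added to every baseline level and the ratios centred on their median. That test did not cover genes with a low baseline or the uncentred ratios given here. Python 3.11.15 with pandas 2.3.3, numpy 2.4.6 and matplotlib 3.10.9 was used.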

Additional observations from a re-analysis of the deposited data

How the results depend on the processing

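In both comparisons with DMSO, 6 of the 7 alternatives left all 8 genes on the same side of 2-fold and of 0. The exception was subtracting the length and GC trend, which left 3 of the 8 at least 2-fold higher after compound 1, without OCLN and TJP1. After compound 2 it also left 3, with CLDN7 in and OCLN and TJP1 out, and turned CLDN3 from -0.12 to 0.30; the sources of these shifts were not tested. None of the 8 differed by 2-fold between the compounds under any of the 7. The ratio of GJB1 after compound 1 ran from -5.77 with a pseudocount of 0.1 to -2.84 with 5, and after compound 2 from -6.17 to -2.88. Over all genes, a pseudocount of 5 gave 985 higher and 560 lower after compound 1, and 804 and 431 after compound 2. The trend subtraction gave 973 higher and 1042 lower after compound 1, and 791 and 864 after compound 2. Between the compounds, 107 were higher and 152 lower with a pseudocount of 0.1, 13 and 16 with 5, and 22 and 31 at a mean of at least 5 TPM. Median-of-ratios scaling moved the median of all genes after compound 1 from 0.11 to 0.01, and CLDN3 to 0.01. No paired analysis was possible because each group held 1 library, and no replicate could be left out. The small read numbers of GJB1 after the compounds limit its fold.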

Other observations

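The neighbouring adhesion complexes of the same cells gave mixed values. Of 7 measured desmosome genes, 3 were at least 2-fold higher after either compound and none lower (median log2 ratio 0.73 and 0.72). They were DSC2, which encodes desmocollin 2 (13.5, 45.8 and 31.5 TPM in the DMSO, compound 1 and compound 2 libraries), DSG2, desmoglein 2 (111, 281 and 253 TPM), and DSP, desmoplakin (18.7, 47.2 and 48.4 TPM). JUP, plakoglobin, was within 2-fold (215, 357 and 356 TPM). With the length and GC trend subtracted, none of the 7 passed 2-fold. Of 10 measured adherens junction genes, 2 were higher and 1 lower after compound 1, and 1 and 1 after compound 2 (medians 0.27 and 0.30). AFDN, which encodes afadin, was at 24.6, 59.1 and 67.7 TPM, NECTIN3 at 5.23, 12.1 and 7.30 TPM, and NECTIN1 at 14.7, 5.00 and 6.55 TPM. CTNNB1, beta-catenin, was at 196, 264 and 302 TPM. With the trend subtracted, AFDN and NECTIN3 were within 2-fold and NECTIN1 was still lower, at -1.35 and -1.09.

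Among epithelial transcription and splicing factors, 3 were at least 2-fold higher after compound 1. KLF5 was at 39.2, 123 and 90.1 TPM, KLF4 at 14.3, 34.7 and 26.0 TPM, and the splicing regulator gene ESRP1 at 84.8, 179 and 112 TPM. Of 4 measured repressors of junction genes, ZEB1 was past 2-fold upwards after both compounds (0.277, 4.15 and 4.11 TPM). With the trend subtracted, ZEB1 stood at 1.14 and 1.23. It was below 1 TPM under DMSO and averaged 1 TPM or more only through the compound libraries, so its fold is imprecise. SNAI1 was at 13.0, 15.3 and 15.2 TPM, SNAI2 at 3.18, 7.06 and 5.95 TPM, and TWIST2 at 9.96, 12.3 and 13.2 TPM. Whether any of these bears on the levels of the claudin and connexin genes was not tested.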
